A study of Homo sapiens with 32 samples.

Results

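The mRNAs studied here are 10 that carry, or are classed with, the terminal oligopyrimidine (TOP) motif, followed across 2 human breast cell lines. They are the translation elongation factors EEF1A1, EEF1B2, EEF1D, EEF1G and EEF2, together with TPT1, PABPC1, NPM1, GNB2L1 (now named RACK1) and YBX1. They were chosen by symbol, as the 10 protein-coding entries of that name among 19815 protein-coding genes in the deposited tables, and all 10 passed the filter on low counts in both lines. MCF10A is an immortalised, non-tumorigenic breast epithelial line, and MDA-MB-231 is a triple-negative breast cancer line. Cells of each line were kept in normoxia (N), in hypoxia at 0.5% O2 for 24 h (H), in normoxia with the mTOR kinase inhibitor PP242 at 2.5 µM for 3 h (NPP), or in hypoxia with PP242 at the same dose and time (HPP), and cells without PP242 received DMSO. For each condition, total cytoplasmic RNA (T) and RNA from the polysomal part of a sucrose gradient (P) were sequenced after poly(A) selection, with 2 biological replicates per group and 32 libraries in all. Gene-level totals were between 30302497 and 46032327 counts per library in MCF10A and between 18340916 and 39536845 in MDA-MB-231.

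EEF1A1 brings aminoacyl-tRNA to the ribosome, EEF1B2, EEF1D and EEF1G form the complex that recharges it with GTP, and EEF2 moves the ribosome along the mRNA. Messengers of this class begin with a C followed by a run of pyrimidines at the cap. The kinase mTORC1 controls how well they are loaded onto ribosomes, through LARP1 and the 4E-BP proteins, so that cells tune production of the translation machinery to nutrients, growth factors and oxygen. PP242 blocks the catalytic site of mTOR. Polysomes are mRNAs carrying several ribosomes, and P is the pool that holds them. Here the translational efficiency (Te) change is the log2 fold change in P minus that in T.

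The starts of the members are shown because the TOP motif is defined by the first bases of the transcript. In the RefSeq promoter table (GRCh38.p14), 8 of the 10 members had an entry at the start of their MANE Select transcript that is printed here, read on the sense strand 5′ to 3′ with 10 bases before the start and the first 20 of the transcript. Capitals mark the longest run made of a C followed by at least 4 bases that are C or T, among runs whose first C lies within 10 bases of the start; the transcript begins at base 11 of each line. Both EEF1D and PABPC1 are named only.
EEF1A1 (chr6:73521013-73521042, minus strand): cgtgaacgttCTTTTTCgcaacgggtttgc
EEF1B2 (chr2:206159885-206159914, plus strand): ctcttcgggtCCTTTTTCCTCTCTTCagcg
EEF1G (chr11:62573872-62573901, minus strand): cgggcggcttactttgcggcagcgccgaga
EEF2 (chr19:3985444-3985473, minus strand): cgtcagcgttCTCTTCCgccgtcgtcgccg
TPT1 (chr13:45341164-45341193, minus strand): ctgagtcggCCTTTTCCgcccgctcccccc
NPM1 (chr5:171387839-171387868, plus strand): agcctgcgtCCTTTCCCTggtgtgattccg
GNB2L1 (chr5:181243887-181243916, minus strand): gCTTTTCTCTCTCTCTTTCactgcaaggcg
YBX1 (chr1:42682408-42682437, plus strand): ctgtcccgccattctcgctagttcgatcgg

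In 6 of these 8 members, EEF1A1, EEF1B2, EEF2, TPT1, NPM1 and GNB2L1, the annotated first base was a C followed by at least 4 such bases. The marked run begins at that base in EEF1A1, EEF1B2 and EEF2 and before it in TPT1, NPM1 and GNB2L1. Of all 35116 promoters listed there, 4.07% had such a C at the first base, whatever came before it, and 31.4% had a run that began within 10 bases of it. The letters searched were not found at the annotated start of EEF1G or YBX1, which says only that they are not in this window.

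Libraries that stood apart were looked for before the comparisons. Hypoxia markers followed the labels: CA9, which encodes carbonic anhydrase IX, was between 7.72 and 12.8 CPM (counts scaled to library size by TMM) in the 4 normoxic T libraries of MCF10A and between 521.7 and 828.7 in hypoxia, again in 4 libraries. The corresponding values of MDA-MB-231 were at most 0.719 CPM in normoxia and at least 13.0 in hypoxia. Of the epithelial markers, KRT5 was between 1190 and 2553 CPM in the T libraries of MCF10A and at most 0.284 in those of MDA-MB-231. However, 2 other markers of the MCF10A identity, CDH1 and TP63, stood at 0.117 CPM or less in every T library of MCF10A. The keratins KRT14 (at least 458.4 CPM) and KRT6A (at least 19.7 CPM) were present in each T library of MCF10A. The mesenchymal-type markers were not all higher in one line. ZEB1 was at 23.6 and 19.6 CPM in the N T libraries of MCF10A and at 71.6 and 59.7 in those of MDA-MB-231, and AXL at 247.2 and 370.1 against 760.5 and 875.7. CDH2, which encodes N-cadherin, was at 66.0 and 64.6 CPM in the N T libraries of MCF10A and at most 1.53 CPM in any T library of MDA-MB-231.

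Within MCF10A the second NPP T library stood apart. Ribosomal protein mRNAs took 17.8% of its protein-coding counts against 9.97% in the first NPP T library, and the 10 members took 4.53% against 3.23%. The second HPP T library went the same way, with 4.22% against 2.85% for the members, and ZEB1 was low in both (4.69 and 8.46 CPM, against 32.6 and 24.7 in the first replicates). CDH2 was lower in them too (28.2 and 33.6 CPM, against 63.0 and 46.9), while AXL was not low in both (394.0 and 332.7 CPM, against 361.1 and 401.3). Among the polysomal libraries the first N replicate had 14.5% ribosomal protein counts against 8.996% in the second. The first H and HPP replicates were likewise above the second, with 9.28% against 5.57% and 2.75% against 1.45%. The part of these differences in the results below was not tested. The spread between replicates was larger in MCF10A (biological coefficient of variation 0.325) than in MDA-MB-231 (0.150).

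The members took a smaller share of polysomal counts with PP242. In MDA-MB-231 the 10 members together made up 2.55% and 2.52% of protein-coding counts in the N polysomal libraries and 1.32% and 1.44% in the NPP ones. In hypoxia the share was 2.44% and 2.05% without PP242 and 1.06% and 1.04% with it. In MCF10A the share was 2.58% and 2.38% in N, 1.02% and 1.07% in NPP, 1.81% and 1.85% in H, and 0.864% and 0.495% in HPP. With PP242 every polysomal library was below every one without it in both lines, whereas in T the PP242 libraries of MDA-MB-231 (2.80% to 3.04%) were above the others (2.47% to 2.63%) and those of MCF10A overlapped with them. These shares are relative to all protein-coding counts, so a loss of polysomal RNA common to all genes is not seen in them.

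**Figure D1:**
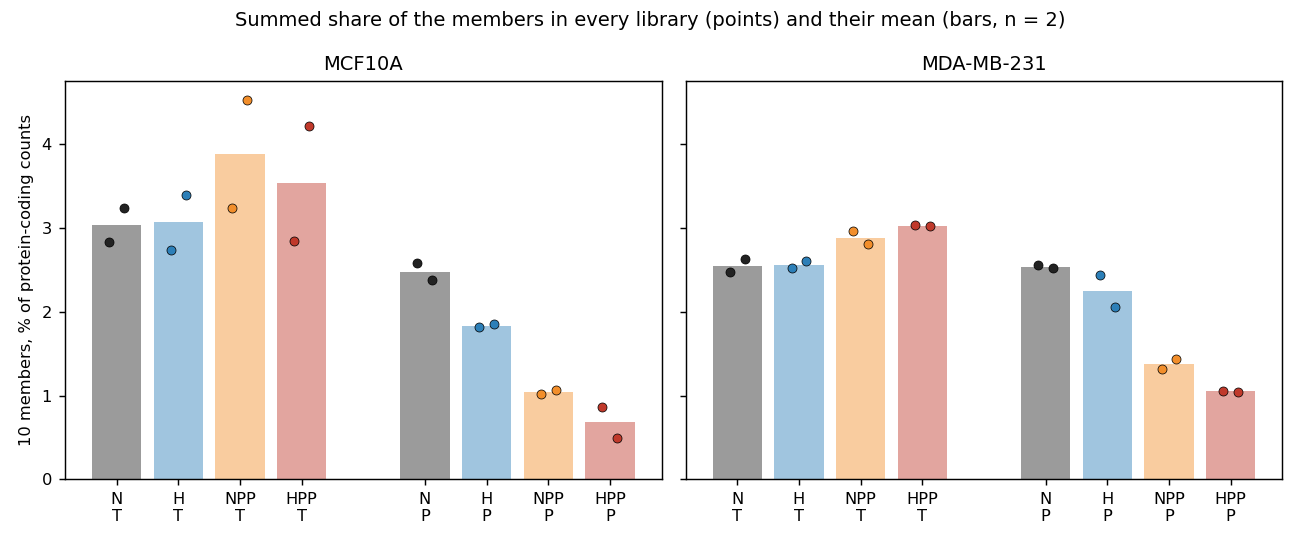
Share of protein-coding counts (y axis, percent) taken by the 10 members together in each library (points) with the mean of the 2 replicates (bars), for T and P in 4 conditions. In P the PP242 libraries lie between 0.495% and 1.44% and all others between 1.81% and 2.58%, while in T the shares range from 2.47% to 4.53%.

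The first question was how PP242 changed the members in normoxic cells of MDA-MB-231, the line with the smaller replicate error. Each member had a negative log2 fold change in P, and 7 of the 10 fell at an adjusted p under 0.05 in edgeR's quasi-likelihood test with Benjamini-Hochberg adjustment over 13510 genes: EEF1A1, EEF1B2, EEF1D, EEF1G, TPT1, GNB2L1 and YBX1. Over all genes tested 1.19% fell. The median over the members was -1.05, against 0.00 over all genes. In T none of the 10 was called, with values between -0.21 and 0.34. The background in T was 0.555%, and DESeq2 called 0 members. There 1 member and 1385 of 13510 genes had an unadjusted p under 0.05.

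Among the elongation factors, EEF1A1 stood at 13556 and 13550 CPM in the 2 N polysomal libraries and at 5557 and 6357 CPM in the NPP ones. The groups did not overlap, and the log2 fold change was -1.19 ± 0.15 (SE, n = 2 against 2, edgeR adjusted p = 0.00062). Its T level went from 12208 and 13169 CPM to 16392 and 15679, so that T was above N in both NPP libraries although that change was not called (0.34 ± 0.15, edgeR adjusted p = 0.45). The exchange factor subunits moved by similar amounts in P. EEF1B2 fell by 0.99 ± 0.21, EEF1D by 1.03 ± 0.17 and EEF1G by 1.22 ± 0.14 on the log2 scale. For EEF1G the libraries read 2258 and 2139 CPM in N against 895.6 and 990.0 in NPP. EEF2, the translocase, was at 502.9 and 682.5 CPM in N and 364.4 and 389.3 in NPP, and this difference was not called (-0.65 ± 0.26, edgeR adjusted p = 0.28).

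TPT1, a small growth-associated protein also known as TCTP, had the lowest log2 fold change of the 10 in P. Its libraries read 986.0 and 891.1 CPM in N and 237.5 and 254.7 in NPP (-1.93 ± 0.18, edgeR adjusted p = 5.3e-05), while T was 1098 and 1257 CPM in N and 1249 and 1118 in NPP. YBX1, a cold-shock domain protein that binds mRNA, went from 954.3 and 949.7 CPM to 324.5 and 353.2 in P (-1.49 ± 0.15, edgeR adjusted p = 0.00013). GNB2L1, a scaffold protein of the small ribosomal subunit, went from 2286 and 2018 CPM to 996.9 and 1050 (-1.07 ± 0.16, edgeR adjusted p = 0.0021). Neither gene's N and NPP polysomal libraries overlapped. NPM1, a nucleolar chaperone of ribosome assembly, read 3849 and 3528 CPM in N and 2635 and 2866 in NPP, a difference that was not called (-0.42 ± 0.18, edgeR adjusted p = 0.32). PABPC1, which coats the poly(A) tail, had a value of -0.78 ± 0.22 (edgeR adjusted p = 0.096).

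The Te change was negative for all 10 members in normoxic MDA-MB-231 cells, with a median of -1.13 against 0.02 over all genes. The members that passed the test were 4, TPT1 (-1.94 ± 0.24, edgeR adjusted p = 0.0047), EEF1A1 (-1.52 ± 0.21, edgeR adjusted p = 0.0050), EEF1G (-1.36 ± 0.20, edgeR adjusted p = 0.0063) and YBX1 (-1.28 ± 0.21, edgeR adjusted p = 0.018). The background was 0.340%, which was 46 of 13510 genes. With the T and P libraries paired by the number in their titles, whose meaning the labels do not state, TPT1 alone passed (edgeR adjusted p = 0.049), with EEF1A1 at 0.056, EEF1G at 0.064 and YBX1 at 0.069. The count was 2 without the first N replicate of T or without the first NPP replicate of P. An unadjusted edgeR p under 0.05 was found for 8 members and 295 of 13510 genes. DESeq2 called 7 members. Over all genes it called more than the 46 of edgeR, so the background of 0.340% does not apply to its count. It called fewer genes than the 295 with an unadjusted edgeR p under 0.05.

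The TPT1 to NPM1 count ratio within a library does not depend on scaling. In P of MDA-MB-231 it was 0.256 and 0.253 in N and 0.0901 and 0.0889 in NPP, and 0.358 and 0.368 in H against 0.107 and 0.113 in HPP. In T it was 0.445 and 0.437 in N, 0.451 and 0.366 in NPP, 0.612 and 0.570 in H and 0.624 and 0.648 in HPP. In P of MCF10A the ratio was 0.504 and 0.315 in N against 0.1202 and 0.174 in NPP, and 0.696 and 0.503 in H against 0.498 and 0.248 in HPP, where the groups nearly met. The pair was chosen after its values were seen and was not tested.

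**Figure D2:**
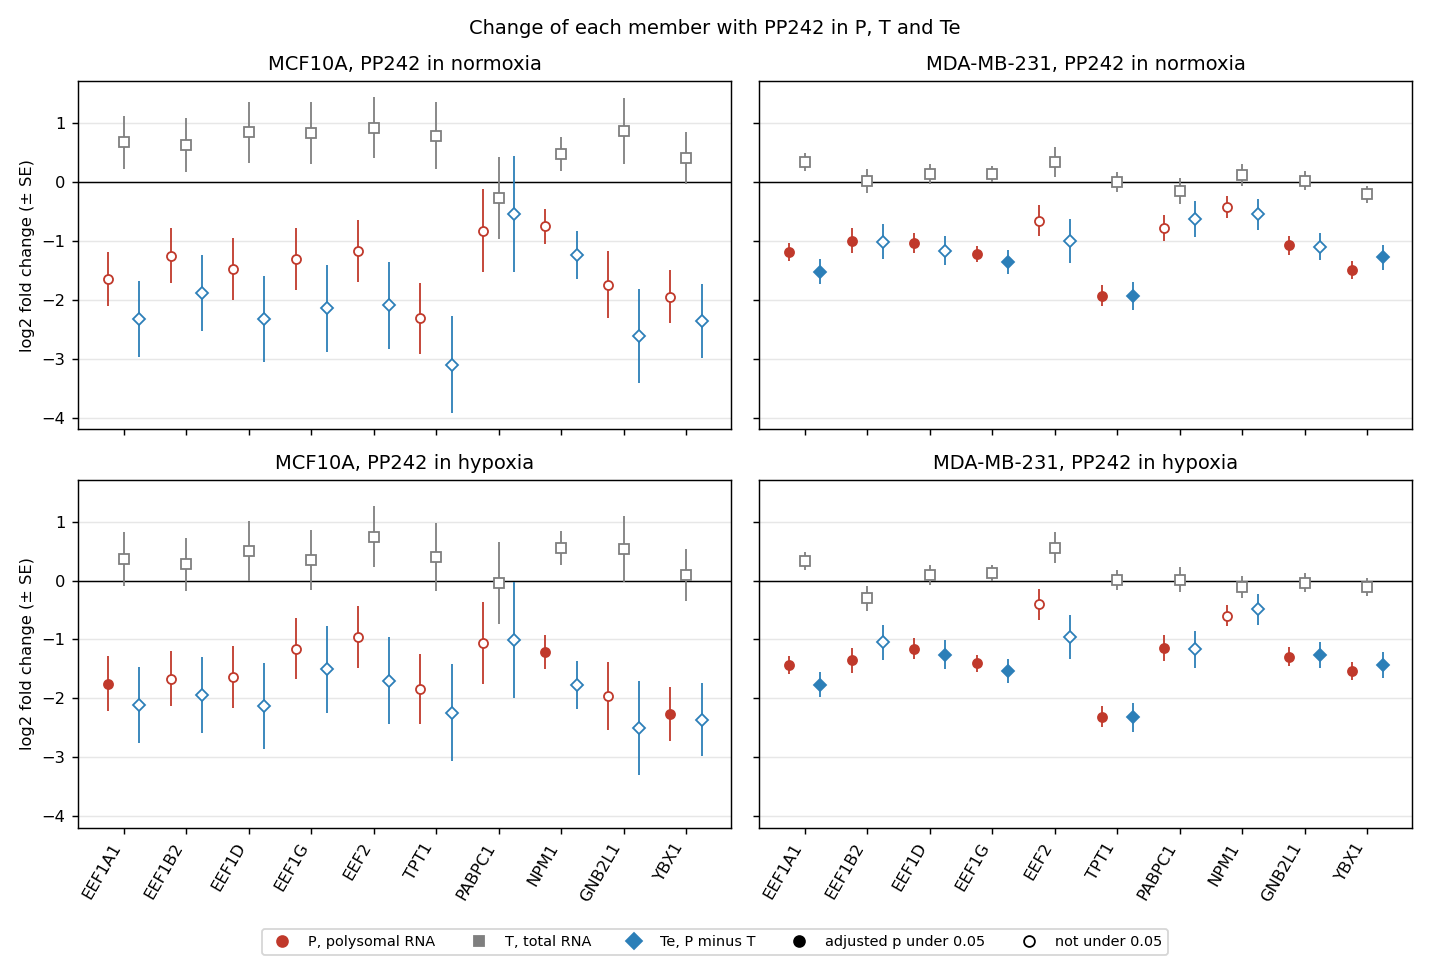
Log2 fold change with PP242 (y axis, ± SE) of each member in P, T and Te (P minus T), by line and oxygen level, each from 2 against 2 libraries per fraction. Filled points had an adjusted p under 0.05; all P and Te values lie below 0, while most T values are close to or above 0.

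In hypoxic MDA-MB-231 cells the question was the same for HPP against H. In P 8 members fell, all but EEF2 (-0.40 ± 0.26, edgeR adjusted p = 0.36) and NPM1 (-0.59 ± 0.18, edgeR adjusted p = 0.051). The background was 6.62% of genes lower, and the medians were -1.32 for the members and 0.00 for all genes. TPT1 went from 1175 and 933.4 CPM in H to 204.5 and 219.1 in HPP (-2.32 ± 0.18, edgeR adjusted p = 4.1e-06). EEF1A1 went from 14366 and 10363 CPM to 4595 and 4542 (-1.44 ± 0.15, edgeR adjusted p = 4.7e-05), and YBX1 from 874.2 and 788.2 CPM to 272.2 and 299.2 (-1.54 ± 0.15, edgeR adjusted p = 2.9e-05). In these genes the H and HPP libraries did not overlap. PABPC1 read 574.8 and 883.0 CPM in H and 342.4 and 314.3 in HPP, and it fell as well (-1.15 ± 0.22, edgeR adjusted p = 0.0046).

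In T of the same cells none of the members was called by edgeR (background 3.78%) or DESeq2. There 1 member and 2500 of 13510 genes had an unadjusted p under 0.05. The Te change was called for 6 members, TPT1 (-2.32 ± 0.24), EEF1A1 (-1.77 ± 0.21), EEF1G (-1.54 ± 0.20), YBX1 (-1.43 ± 0.21), EEF1D (-1.26 ± 0.24) and GNB2L1 (-1.26 ± 0.23), against 0.622% of all genes. Pairing T and P by that number left 4 of these, with EEF1D at an edgeR adjusted p of 0.064 and GNB2L1 at 0.091. No test showed that oxygen changed the response of Te to PP242: the difference between the hypoxic and normoxic effects lay between -0.54 ± 0.43 (PABPC1) and 0.06 ± 0.37 (NPM1), 0 members had an unadjusted p under 0.05, and 0 were called by edgeR or DESeq2, against a background of 0.0148%.

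In MCF10A the members had P values of a similar or larger size, but with larger errors. In normoxia all 10 were negative in P, from -0.75 (NPM1) to -2.31 (TPT1), with a median of -1.40 against -0.04 over all genes. None passed the edgeR test, where the background was 0.351%, and without either NPP replicate of T 1 was called. An unadjusted p under 0.05 was found for 9 members and 1752 of 13124 genes, and DESeq2 called 4 members and 665 genes. TPT1 read 2593 and 1178 CPM in N and 351.9 and 407.0 in NPP (-2.31 ± 0.60, edgeR adjusted p = 0.10). YBX1 read 1538 and 793.3 CPM in N and 319.4 and 286.4 in NPP (-1.94 ± 0.45, edgeR adjusted p = 0.073). In both genes the first N replicate was the higher one and both N libraries were above both NPP libraries.

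EEF1A1 in P of MCF10A stood at 12545 and 9885 CPM in N and at 3352 and 3817 in NPP (-1.65 ± 0.46, edgeR adjusted p = 0.12). Its T libraries read 12717 and 14638 CPM in N and 14811 and 28941 in NPP, where only the second NPP replicate was far above the others. EEF2 showed that pattern in T too, with 1076 and 1579 CPM in N and 1186 and 3864 in NPP. PABPC1 went the other way in that replicate, with 1328 and 339.5 CPM in the NPP T libraries. None of the 10 was called in T (background 0.648%), 0 had an unadjusted p under 0.05, and DESeq2 called 0. The Te values, all negative, had a median of -2.23 and ran from -0.55 (PABPC1) to -3.10 (TPT1). That median was -1.28 without the second NPP replicate of T and -2.71 without the first. The value of PABPC1 turned to 0.75 without the first NPP replicate of T. None was called by edgeR. An unadjusted p under 0.05 was found for 9 members and 296 of 13124 genes, and DESeq2 called 9 members and 94 genes. The edgeR background of Te was 0%, since no gene was called.

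In hypoxic MCF10A cells PP242 lowered 3 members in P: YBX1 (-2.27 ± 0.46, edgeR adjusted p = 0.016), NPM1 (-1.21 ± 0.29, edgeR adjusted p = 0.032) and EEF1A1 (-1.75 ± 0.46, edgeR adjusted p = 0.046). The background was 3.87%, and the other 7 were all negative, from -0.96 (EEF2) to -1.96 (GNB2L1). In this comparison 8 members and 2752 of 13124 genes had an unadjusted p under 0.05, and DESeq2 called 7 members and 1578 genes. NPM1 read 2356 and 2013 CPM in H and 1082 and 807.9 in HPP. YBX1 read 991.7 and 859.2 CPM in H and 199.9 and 184.8 in HPP, and neither gene's groups overlapped. The edgeR count was 0 without either HPP replicate of P or the first H replicate of P. It was 7 and 6 without the first or second NPP replicate of T. It was 1 without either N or H replicate of T, either NPP replicate of P or the second H replicate of P. With a replicate block within each fraction it was 8, a count to which the background of 3.87% does not apply. The replicate numbers were not taken to pair conditions. In T 0 members were called by edgeR or DESeq2, 0 had an unadjusted p under 0.05, and the background was 3.74%. In Te the median was -2.03, and 8 members and 272 of 13124 genes had an unadjusted p under 0.05. There edgeR called 0 members, with an edgeR background of 0%. DESeq2 called 7 members and also called genes outside the 10, so the edgeR background does not apply to its count. Over all genes DESeq2 called fewer than the 272 with an unadjusted edgeR p under 0.05. The oxygen difference in the PP242 effect on Te was also without a call, by edgeR or DESeq2, in MCF10A (background 0%, 0 members with an unadjusted p under 0.05), with values from -0.54 ± 0.58 (NPM1) to 0.86 ± 1.14 (TPT1).

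**Figure D3:**
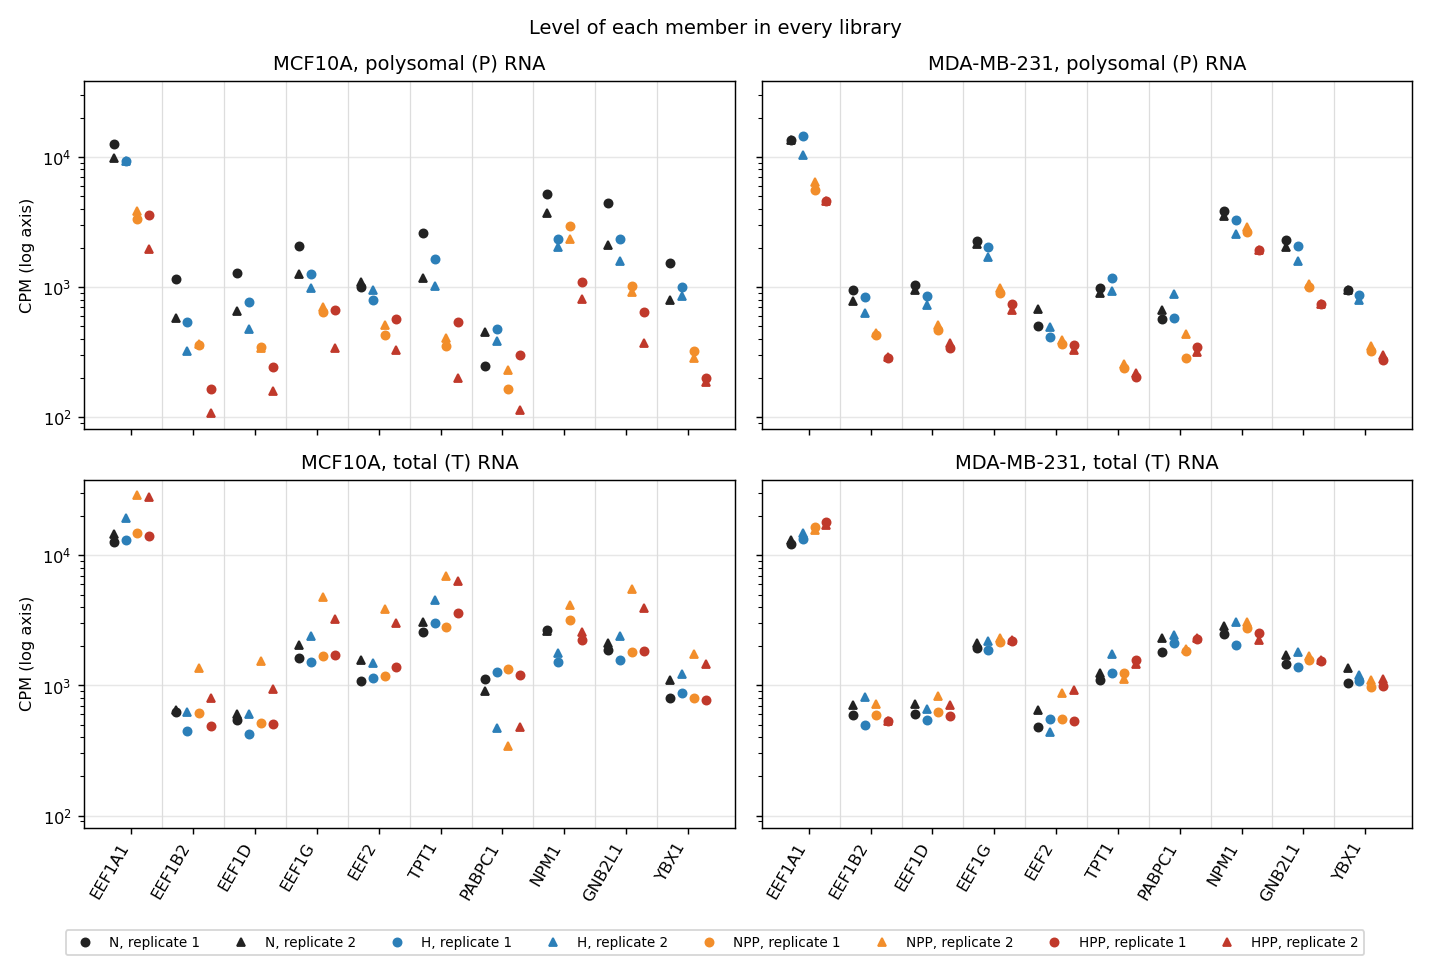
CPM (log y axis) of each member in all 32 libraries, by line and fraction; colours give the condition, circles replicate 1 and triangles replicate 2. In P the NPP points lie below both N points and the HPP points below both H points for every member in both lines, and in T of MCF10A the second NPP and HPP replicates stand apart.

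For every member and in both lines, both PP242 libraries were below both libraries without it in P at the same oxygen level. Such a lack of overlap downwards was found for 22.1% of genes in normoxic and 25.4% in hypoxic MCF10A cells, and for 20.9% and 28.2% in MDA-MB-231. With 2 libraries against 2, a two-sided permutation test of a single gene cannot go below p = 0.333, so the calls rest on the spread pooled over genes and groups.

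Hypoxia alone was then compared with normoxia. No member was called in P, T or Te in either line by edgeR. In MDA-MB-231 the values in P lay between -0.39 (EEF2) and 0.25 (PABPC1), with SEs from 0.14 to 0.26, and 0 members had an unadjusted p under 0.05 in P, T or Te. DESeq2 also called 0. The backgrounds were 2.29% in P, 1.27% in T and 0.0148% in Te. In MCF10A the median in P was -0.54, but it was -0.02 without the first N replicate of P and -0.92 without the second. NPM1 (-1.02 ± 0.29, edgeR adjusted p = 0.13) and EEF1B2 (-1.001 ± 0.46, edgeR adjusted p = 0.40) were the lowest. NPM1 read 5142 and 3735 CPM in N and 2356 and 2013 in H, without overlap. Both H libraries were below both N libraries in P for 5 of the 10 members in each line. Over all genes this held for 20.5% in MDA-MB-231 and 20.2% in MCF10A, and the difference was not tested. In T of MCF10A NPM1 went from 2651 and 2641 CPM to 1503 and 1781 (-0.69 ± 0.29, edgeR adjusted p = 0.40). The edgeR backgrounds were 1.49% in P, 1.54% in T and 0% in Te. An unadjusted p under 0.05 was found for 1 member and 1636 of 13124 genes in P, and for 1 member and 1426 genes in T. In Te it was found for 0 members and 23 genes. DESeq2 called 1 member and 556 genes in P, 0 members and 503 genes in T, and 0 of either in Te. With a replicate block within each fraction edgeR called 1 member in P, a count to which the background of 1.49% does not apply.

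Hypoxia and PP242 together, HPP against N, use the same N and HPP libraries as the comparisons above and are not independent of them. All 10 members fell in P of MDA-MB-231 (background 9.73%), from -0.79 ± 0.26 for EEF2 (edgeR adjusted p = 0.049) to -2.15 ± 0.18 for TPT1. In Te, 6 passed (background 0.696%), the same 6 that passed for HPP against H. In P of MCF10A 8 fell (background 11.9%), the exceptions being EEF2 (-1.23 ± 0.52) and PABPC1 (-0.76 ± 0.70), and NPM1 had the lowest adjusted p (-2.23 ± 0.30, edgeR adjusted p = 0.00066). That count was 3 without the first N replicate or the second HPP replicate of P. In Te of MCF10A edgeR called 0 (background 0%) with a median of -2.62. There 9 members and 433 of 13124 genes had an unadjusted p under 0.05, and DESeq2 called 7 members and 140 genes. With a replicate block within each fraction edgeR called 7 members, a count to which the background of 0% does not apply. The replicate numbers were not taken to pair conditions.

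Other gene groups place these values. Cytosolic ribosomal protein mRNAs, the largest TOP class, had a median P change of -1.32 with PP242 in normoxic MDA-MB-231, where 76 of 79 fell, and of -1.86 in hypoxia, where all 79 fell, against 1.19% and 6.62% of all genes. Their Te medians were -1.42 and -1.70, below those of the members (-1.13 and -1.26). The lowest Te value in normoxia was that of RPS19 (-2.07 ± 0.27) and the highest that of RPL41 (-0.44 ± 0.41). A list of 14 other mRNAs classed with the TOP mRNAs, whose starts were not examined here (among them translation initiation factor subunits and nuclear import receptors), had a Te median of -0.73 in normoxia. In P, 4 of the 14 fell in normoxia (BTF3, EIF3F, EIF3H and SLC25A5) and 9 in hypoxia, against the same backgrounds. At the ends of that list stood EIF3F (-1.05 ± 0.22 in Te), a subunit of initiation factor 3, and IPO5 (-0.07 ± 0.19), an import receptor.

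Elongation-related genes outside the 10 had Te medians near 0 in MDA-MB-231. A list of 14 genes held other elongation, recycling, termination and diphthamide-synthesis factors. It also held EEF2K, VARS and EEF1E1, which encode a kinase, a tRNA synthetase and a subunit of the synthetase complex. The Te median of the list was -0.04 in normoxic and -0.02 in hypoxic MDA-MB-231 cells, and none passed in Te. In P, EEF1A2 alone fell in normoxia (-0.65 ± 0.16, edgeR adjusted p = 0.048, background 1.19%), and 5 fell in hypoxia (ABCE1, DPH2, DPH5, EEF1E1 and ETF1), where the median of the 14 was -0.28 and 6.62% of all genes fell. Of these, ABCE1 and EEF1E1 also fell in T, where 3.78% of all genes were called in either direction. In hypoxic MCF10A cells the median was -0.66 in P, where DPH2, EEF1E1 and ETF1 fell (background 3.87%), and -0.43 in T, where DPH2 and ETF1 fell (background 3.74% in either direction). In normoxic MDA-MB-231 cells the extremes of the 14 in Te were EEF1A2 (-0.65 ± 0.22) and EIF5A2 (0.25 ± 0.19). For the 5 mitochondrial elongation factors the Te median in MDA-MB-231 was 0.13 in normoxia and 0.23 in hypoxia. In normoxic cells of that line TUFM, the mitochondrial counterpart of EEF1A1, was at -0.21 ± 0.21 and GFM1, that of EEF2, at 0.21 ± 0.18. None of the 5 passed in P, T or Te of NPP against N or of HPP against H in either line. In MCF10A the medians in normoxic Te were -2.60 for ribosomal protein mRNAs and -1.52 for the other TOP mRNAs. They were -0.08 for the other elongation-related genes and 0.41 for the mitochondrial factors, with no gene called.

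**Figure D4:**
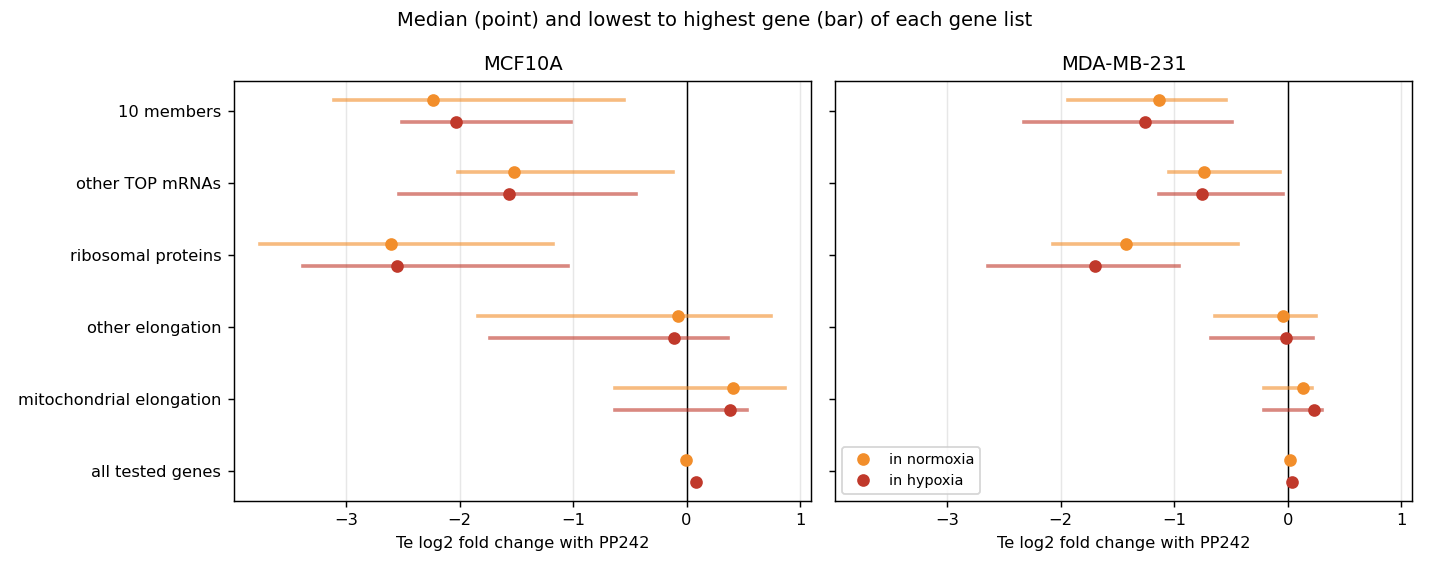
Te log2 fold change with PP242 (x axis) in 5 gene lists and all tested genes, by line and oxygen level; points are medians and bars run from the lowest to the highest gene of a list (not drawn for all genes). In MDA-MB-231 the medians run from -1.70 for ribosomal protein mRNAs in hypoxia to 0.23 for mitochondrial elongation factors.

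Close relatives of 4 members were followed as well. EEF1A2, the tissue-restricted form of EEF1A1, had a level of 13.9 ± 0.18 CPM per kb of transcript (SD, n = 2) in N T libraries of MDA-MB-231, against 3613 ± 194 for EEF1A1. In P of that line its log2 fold change with PP242 in normoxia was -0.65 against -1.19 for EEF1A1, and that of YBX3 was -0.61 (edgeR adjusted p = 0.037) against -1.49 for YBX1. For PABPC4 (-0.41) and NPM3 (-0.35) no change was called in normoxia. In hypoxia PP242 lowered NPM3 (-0.87, edgeR adjusted p = 0.031) and YBX3 (-0.61, edgeR adjusted p = 0.012) in P of MDA-MB-231, and PABPC4 in P of MCF10A (-1.23, edgeR adjusted p = 0.025). All 4 had negative Te values in both lines and at both oxygen levels, none of them called. Reads of near-identical copies could be split by the counting: processed pseudogenes named after a member held at most 1.59% of that member's counts, for YBX1.

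Levels in the control cells were compared per length of the MANE Select transcript, a scale that depends on the transcript model. In T of normoxic MDA-MB-231 EEF1A1 was highest at 3613 ± 194 CPM per kb (SD, n = 2), and NPM1 (2025 ± 220), EEF1G (1404 ± 84.3) and GNB2L1 (1396 ± 147) followed. EEF1G and GNB2L1 did not differ beyond their spread. EEF1B2 was at 802 ± 104.1 and PABPC1 at 724 ± 128, again within their spread. YBX1 was at 403 ± 78.2, EEF1D at 315 ± 38.2, TPT1 at 259 ± 24.7 and EEF2 at 178 ± 37.2. Of these, YBX1 and EEF1D did not differ beyond their spread, nor did EEF1D and TPT1. The TPT1 model is 4548 nt long with 516 nt of coding sequence, and a shorter transcript would give TPT1 a higher value. In MCF10A EEF1A1 was also the highest (3895 ± 387) and EEF1D had the lowest mean (273 ± 19.0), within the spread of YBX1 (319 ± 71.1). Between the lines, in a joint fit of 14298 genes, EEF2 (-1.71 ± 0.45, edgeR adjusted p = 0.0041) and TPT1 (-1.73 ± 0.44, edgeR adjusted p = 0.0035) were lower in T of MDA-MB-231. The other 8 were not called. Over all genes 20.5% were lower and 40.7% were called in either direction, so these 2 calls are a share near the background. The lines stand in separate count tables with separate runs of barcode numbers in their labels, which cannot be told apart from the line.

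The PP242 effect on Te was tested between the lines as well. The difference, MDA-MB-231 minus MCF10A, ran from -0.11 ± 1.05 (PABPC1) to 1.47 ± 0.85 (GNB2L1) in normoxia and from -0.12 ± 1.05 (PABPC1) to 1.29 ± 0.47 (NPM1) in hypoxia. Neither edgeR nor DESeq2 called a member, and the edgeR background was 0% at both oxygen levels. An unadjusted p under 0.05 was found for 0 members and 124 of 14298 genes in normoxia, and for 1 member and 118 genes in hypoxia. The SEs were between 0.47 and 1.05, and the smallest difference that 2 replicates could detect was not measured. The lack of a call therefore does not show equal effects in the 2 lines.

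In polysome loading without treatment, P against T in N, 2 of the 10 members were called in MDA-MB-231, a share near the background of 13.1%. PABPC1 was lower in P than in T (-1.75 ± 0.22, edgeR adjusted p = 0.00033), with 564.3 and 664.3 CPM in P against 1814 and 2330 in T. EEF1D was higher in P (0.60 ± 0.17, edgeR adjusted p = 0.035), with 1037 and 955.1 CPM in P against 603.0 and 715.8 in T. EEF1D lost its call without either N replicate of T, without the first N replicate of P or without the second HPP replicate of P, which left 1 call, and the count rose to 4 without either H replicate of T. In MCF10A PABPC1 was at -1.53 ± 0.71, edgeR and DESeq2 called 0 members, and the edgeR background was 0%. An unadjusted p under 0.05 was found there for 1 member and 1660 of 13124 genes.

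The likeness of the members across libraries was uneven. Over the 16 libraries of a line, the correlation of a member's log2 CPM with the mean over the 10, a mean that includes the member itself and so raises the value, was 0.994 for EEF1G and 0.986 for YBX1 in MDA-MB-231. It was lowest for NPM1 there (0.523) and for PABPC1 in MCF10A (0.598). Among 12364 other genes the 8 with the highest correlation in the poorer of the 2 lines were RPS2 (0.985), RPL12 (0.979), RPL13A (0.974), SLC25A6 (0.972), RPS20 (0.972), RPL37 (0.971), RPL39 (0.970) and RPSA (0.970). Of these, 7 are ribosomal protein genes, and SLC25A6 encodes a mitochondrial ADP/ATP carrier. The libraries share the contrast of P with T and of PP242 with its absence, so these values are descriptions.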

How the data were processed

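Cytoplasmic extracts were fractionated on sucrose gradients, and poly(A) RNA of the total and polysomal fractions was sequenced. The authors aligned the reads with STAR and estimated gene counts with RSEM; the deposited values are expected counts, given as whole numbers without normalization, in 1 table per line. The methods name GRCh38 and the processing notes GRCh37, so no coordinate was taken from the tables, and whether counting used strand is not given in the sources used here. Protein-coding counts (97.4% to 99.2% of each library) were scaled by TMM, filtered with filterByExpr and fitted with edgeR 4.0.16 (R 4.3.3; limma 3.58.1), with 1 coefficient per group of line, condition and fraction; Te was the interaction contrast. A call is an adjusted p under 0.05. The members, gene lists and comparisons were chosen with earlier results of these data known. All 10 members are named; of each companion list the genes at the ends of the normoxic Te values are named, the paralogs all, and others after their values were seen. The statistics were tested on simulated data. Alternatives were DESeq2 1.42.0, other scalings, filters, gene classes and thresholds, added pseudogene counts, thinning to 17989413 counts, replicate blocks, T and P paired by title number, fits to the compared libraries alone and each library left out. T and P libraries share a number in their titles, and the labels do not state what it marks. It was used to pair them as an alternative; their deviations correlated above 0.1 in 1 of 4 conditions in MCF10A and 3 of 4 in MDA-MB-231. The replicate numbers were not taken to pair conditions, since not every pair of same-numbered libraries had deviations correlated above 0.1. In MCF10A this held for 6 of 6 pairs of conditions within T and 3 of 6 within P, and in MDA-MB-231 for 4 of 6 within each. The 3 within P of MCF10A were N with H (0.63), N with HPP (0.31) and H with HPP (0.48). The pairs with NPP were not above 0.1 there. The main counts leave such sharing out. No libraries were duplicates. Counts are reads without molecular identifiers.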

Additional observations from a re-analysis of the deposited data

How the results depend on the processing

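The PP242 effects of the members in P and Te, HPP against N included, kept their negative sign in 3416 of 3420 values from the alternatives run, and the 4 exceptions were all PABPC1 in Te of MCF10A with 1 library left out. Part of this was set beforehand, since alternatives that moved only the threshold reuse the same fold changes. A left-out library outside the groups compared acts only through the filter, the scaling and the shared spread. No member called in one setting was called with the opposite sign in another. In MDA-MB-231, EEF1A1, EEF1G, TPT1, GNB2L1 and YBX1 passed in P with PP242 at both oxygen levels in all 28 alternatives. The looser threshold among them could not have removed a call.

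Counts of members called moved as follows in MCF10A. They describe the members only. Among the alternatives, counts over all genes are given for DESeq2 alone, and not beside each of its counts. For PP242 in normoxic P, 0 became 2 at an adjusted p under 0.10, 4 with DESeq2, 1 with library totals in place of TMM and 5 with a replicate block within each fraction. For PP242 in hypoxic P, 3 became 7 at an adjusted p under 0.10, 7 with DESeq2, 6 with library totals, 8 with the replicate block within each fraction, 1 without a filter and 1 with only the libraries compared. With DESeq2 the counts in Te, 0 in edgeR, were 9 for NPP against N, 7 for HPP against H and 7 for HPP against N, and 7 for the last with the replicate block within each fraction. Hypoxia in P gave 1 with DESeq2, library totals or that block, and loading gave 4 with the block. In MDA-MB-231, the Te count of 4 for NPP against N was 7 with DESeq2, 8 without a filter and 1 with T and P paired by title number. PP242 in hypoxic T gave 1 without a filter (EEF2). Loading, with 2 calls, gave 1 where a log2 change of 1 or more in size was also asked, and 4 with DESeq2 (2499 of all genes). It gave 4 with library totals and 5 with the replicate block within each fraction. A single replicate block over both fractions, and the title-number pairing elsewhere, left every count within 1.5 times its value. In MCF10A same-numbered T libraries correlated above 0.1 in all 6 pairs of conditions, and the block changed no call in T there.

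With each library left out in turn, PP242 in normoxic P of MCF10A gave 0 to 1 calls, PP242 in hypoxic P 0 to 7 and HPP against N in P 3 to 9. In MDA-MB-231 the Te count for NPP against N ranged from 2 to 6 and that of loading from 1 to 4. Library totals moved the median of all genes by more than 0.1 in 19 of 29 comparisons, by up to 0.44 for HPP against N in Te of MCF10A, and the members' medians with PP242 in P and Te stayed negative. The causes of these shifts were not tested. A fall common to all polysomal RNA cannot be seen in scaled counts.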
